A study of Homo sapiens with 4 samples.

Results

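The plasminogen and tissue factor system is described here through 8 genes in human MDA-LM2 cells given a decoy RNA. The genes are F3, TFPI, TFPI2, THBD, PLAU, PLAT, PLAUR and SERPINE2. They were chosen by name from the pathway, with the difference between decoy and scrambled RNA in these same arrays already known, so all their differences below are descriptions and carry no test. They are 8 genes beside 15344 genes that could be tied to a probe of the array. A probe was found for 7 of the 8. Of these, 6 were detected above background on all 4 arrays and TFPI on 3, and F3 has a value only in the authors' deposited table.

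MDA-LM2 is a lung-metastatic derivative of the MDA-MB-231 breast cancer line. The cells were transfected by Lipofectamine with synthetic RNA that had a cap and a poly(A) tail in every sample. In 2 samples this RNA held tandem copies of sRSE, an RNA element whose binding factor the decoy was meant to titrate, and in 2 samples it held a scrambled sequence. Total RNA was taken 48 h after transfection and hybridised to Illumina expression beadchips, 1 array per sample. No sample without transfection was analysed here, so only the decoy and the scrambled RNA are compared. Nothing in the labels says that the 2 samples of a group were separate cultures, and the spread between them may be technical.

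Tissue factor, the product of F3, is the membrane receptor that binds factor VII and starts coagulation, which ends in thrombin and fibrin. TFPI blocks the tissue factor complex, and thrombomodulin, the product of THBD, turns bound thrombin to the activation of protein C. Fibrin and many matrix proteins are broken down by plasmin, which urokinase (PLAU) and tissue plasminogen activator (PLAT) release from plasminogen. Urokinase acts on the cell surface bound to its receptor (PLAUR), and serpins, SERPINE2 among them, inhibit the activators. Breast cancer lines of the MDA-MB-231 lineage are known for high urokinase and tissue factor.

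The region upstream of a gene start is shown for the 3 members with the largest differences between the arrays and for F3, the gene that starts the clotting cascade. Each sequence is the 250 bases before the start in the RefSeq promoter table (GRCh38.p14), on the gene's own strand, and it was searched on both strands. The capitals mark AP-1 motifs (TGANTCA), the NF-kB consensus and CCAAT boxes (CCAAT), which do not overlap each other in these windows. TFPI2 lies at chr7:93890754-93891003, PLAUR at chr19:43670170-43670419, the first listed start of SERPINE2 at chr2:224031479-224031728 and F3 at chr1:94541760-94542009, all on the minus strand.
TFPI2: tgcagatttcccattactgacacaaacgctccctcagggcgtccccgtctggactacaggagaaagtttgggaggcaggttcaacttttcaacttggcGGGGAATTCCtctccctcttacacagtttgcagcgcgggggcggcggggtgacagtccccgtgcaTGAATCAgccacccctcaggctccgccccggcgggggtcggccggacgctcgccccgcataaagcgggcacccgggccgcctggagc
PLAUR: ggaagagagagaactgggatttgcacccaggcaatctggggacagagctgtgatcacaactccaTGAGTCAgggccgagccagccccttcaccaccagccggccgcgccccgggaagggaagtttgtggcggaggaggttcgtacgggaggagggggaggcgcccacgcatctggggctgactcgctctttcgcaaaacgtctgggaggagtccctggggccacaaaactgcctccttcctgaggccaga
SERPINE2: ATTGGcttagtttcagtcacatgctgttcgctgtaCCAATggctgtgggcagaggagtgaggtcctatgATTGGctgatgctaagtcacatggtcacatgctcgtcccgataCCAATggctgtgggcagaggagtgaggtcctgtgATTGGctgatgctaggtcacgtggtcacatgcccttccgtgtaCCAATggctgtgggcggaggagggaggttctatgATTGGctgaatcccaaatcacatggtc
F3: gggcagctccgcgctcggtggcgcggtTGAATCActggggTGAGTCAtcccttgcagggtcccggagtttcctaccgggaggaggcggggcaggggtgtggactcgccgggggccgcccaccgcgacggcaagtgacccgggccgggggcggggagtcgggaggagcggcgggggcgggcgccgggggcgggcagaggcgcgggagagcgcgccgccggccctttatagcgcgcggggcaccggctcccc

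The TFPI2 window held an NF-kB match 152 bases before the start and an AP-1 match 87 bases before it. The PLAUR window held 1 AP-1 match, 186 bases before the start. SERPINE2 had 7 CCAAT boxes, or ATTGG on the other strand, upstream of its first listed start and 0 upstream of its second. F3 held 2 AP-1 matches, 223 and 210 bases before the start, and a TATA box (TATAAA, read on the other strand) 28 bases before it. Among 35116 promoter windows of the same length, 6.57% held an AP-1 motif, 5.21% the NF-kB consensus, 32.0% a CCAAT box and 10.7% a TATA box. These matches are descriptions of the letters and show no binding. Of the 8 genes, 6 had an entry in the table, and the windows of TFPI and PLAU held 0 AP-1 and 0 NF-kB matches.

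TFPI2, PLAUR and SERPINE2 differed most between decoy and scrambled arrays, and PLAT followed. TFPI2 and SERPINE2 were lower with the decoy, and PLAUR and PLAT were higher. PLAU, the brightest of the 7 probes, was level within the spread of its arrays. TFPI and THBD had signals close to background. Signals of different probes do not rank transcripts by abundance, and a total RNA array cannot tell fewer expressing cells from less RNA per cell.

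**Figure D1:**
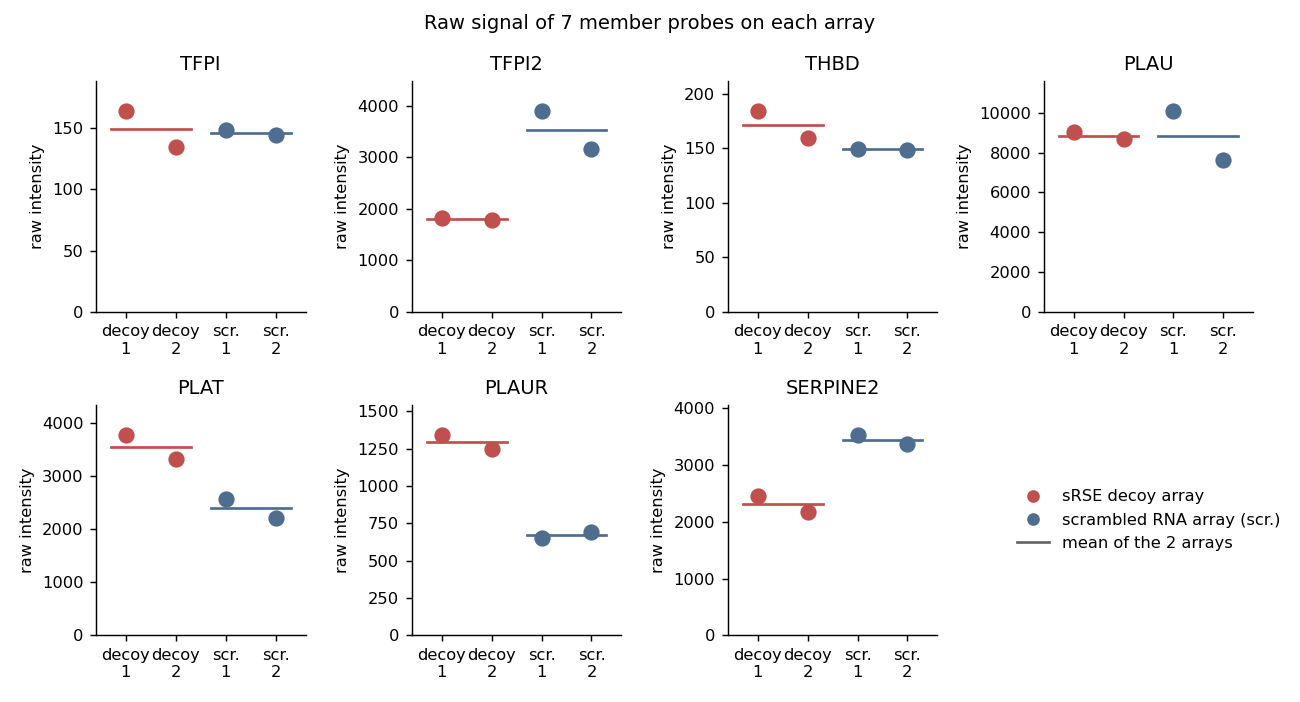
Raw intensity (arbitrary units, linear axis from 0) of the 7 members with a probe on the 2 sRSE decoy arrays and the 2 scrambled RNA arrays, with a line at the mean of each group's 2 arrays. TFPI2 and SERPINE2 sit lower and PLAUR and PLAT higher on both decoy arrays, while the groups overlap for PLAU and TFPI.

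On the tissue factor side, F3 itself had no probe within the tolerance of the join. The authors' deposited table lists F3 with a value of -0.00615, decoy over scrambled, above 13.6% of all its 39747 accessions. The table does not state its scale. Probes were linked where the value matched a log10 ratio of group means of inverse hyperbolic sine values. The constants of this match were fitted to the deposited values. The match at linked accessions thus follows from the linking. No probe gave such a match for F3, and the spread behind its value is unknown. A deposited value is no fold of intensity, since TFPI2 has -0.0431 there beside a log2 difference of -1.11 on the arrays.

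TFPI2 encodes a Kunitz inhibitor of plasmin and other serine proteases, and in spite of its name it is a weak inhibitor of tissue factor. Its raw intensity was 1825.3 and 1789.2 on the decoy arrays, against 3896.1 and 3159.3 on the scrambled arrays. Both decoy values lay far below both scrambled values. After normalization the log2 signals were 10.64 and 10.76 with the decoy, against 11.90 and 11.73 with scrambled RNA. The log2 difference was -1.11 ± 0.10 (standard error of the fit, n = 2 arrays per group), a 2.16-fold lower signal, and the 4 pairings of a decoy with a scrambled array gave -1.25 to -0.97. Of 13889 detected probes, 0.986% differed by more in either direction. In the authors' deposited table, the value of TFPI2 was -0.0431, above 0.0252% of all accessions. The probe was linked through this value from the same arrays, so it is no second measurement. This share also counts undetected transcripts and cannot be set against the share of detected probes.

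TFPI, the inhibitor of factor Xa and of the tissue factor complex, was dim. Its raw intensity was 164.0 and 134.8 on the decoy arrays, against 148.5 and 144.3 on the scrambled arrays, so the raw groups overlapped. The detection p-value, which sets a probe against the negative control beads, was 0.00909 and 0.01429 with the decoy and 0.0039 on each scrambled array. After normalization the log2 signals were 6.52 and 6.25 with the decoy, against 6.78 and 6.82, a difference of -0.41 ± 0.11 (standard error, n = 2 per group). The raw means themselves stood at a ratio of 1.02, decoy over scrambled, while the normalized value was lower. That value moved with the processing, to -0.23 with median scaling and -0.26 without background correction. A second TFPI accession has no linked probe, and the authors' deposited table gives -0.0102 for the linked accession and 0.00554 for the other.

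THBD, the thrombin receptor thrombomodulin, had raw intensities of 184.0 and 159.0 on the decoy arrays, against 149.4 and 148.3 on the scrambled arrays. The raw values were higher with the decoy, and the normalized ones were lower. The log2 signals were 6.76 and 6.61 with the decoy and 6.79 and 6.89 with scrambled RNA, a difference of -0.15 ± 0.10 (standard error, n = 2 per group). With median scaling the difference was 0.044, so THBD has no settled direction. The lowest raw intensity with a detection p under 0.01 was 163.5 and 150.1 on the decoy arrays and 132.1 and 120.4 on the scrambled arrays, which places THBD and TFPI at the edge of detection.

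PLAU encodes urokinase, the activator that works on the cell surface. Its raw intensity was 9055.7 and 8670.0 on the decoy arrays, against 10090.4 and 7616.2 on the scrambled arrays. The decoy values fell between the scrambled values. The log2 difference was -0.035 ± 0.11 (standard error, n = 2 per group), and the 4 array pairings ran from -0.20 to 0.13. Over the alternatives it ran from -0.27, with median scaling over the detected probes, to 0.098, without scrambled replicate 1. Cyclic loess gave 0.021 and median scaling -0.19.

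PLAT encodes tissue plasminogen activator, the activator best known from the dissolving of clots in blood. The PLAT probe read raw intensities of 3777.1 and 3312.9 on the decoy arrays, against 2572.0 and 2209.0 on the scrambled arrays. Both decoy values lay above both scrambled values. The log2 signals were 11.74 and 11.69 with the decoy, against 11.29 and 11.22, a difference of 0.46 ± 0.09 (standard error, n = 2 per group) or 1.38-fold higher. A larger difference in either direction was seen for 22.2% of detected probes, so a change of this size was common on these arrays. The PLAT difference was 0.37 with median scaling and 0.29 with median scaling over the detected probes.

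PLAUR encodes the urokinase receptor, which holds urokinase at the membrane through a glycolipid anchor. The PLAUR probe read raw intensities of 1341.6 and 1246.8 on the decoy arrays, against 648.5 and 688.7 on the scrambled arrays. No decoy value came near a scrambled one. The log2 signals were 10.15 and 10.20 with the decoy, against 9.30 and 9.52, and the difference was 0.77 ± 0.10 (standard error, n = 2 per group), 1.71-fold higher. The 4 array pairings gave 0.64 to 0.91, and 5.41% of detected probes differed by more. In the authors' deposited table, the linked PLAUR accession had a value of 0.0317, above 99.6% of accessions. That value served to link the probe and is no second measurement, and the share includes undetected transcripts. A second PLAUR accession in the authors' deposited table, with no linked probe, had 0.0173, above 97.3%.

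SERPINE2 encodes protease nexin-1, a serpin that inhibits thrombin, urokinase and tissue plasminogen activator. Its raw intensity was 2450.1 and 2170.3 on the decoy arrays, against 3532.8 and 3366.5 on the scrambled arrays. Both decoy values lay below both scrambled values. The log2 signals were 11.09 and 11.07 with the decoy, against 11.76 and 11.82, a difference of -0.71 ± 0.09 (standard error, n = 2 per group) or 1.63-fold lower. The 4 pairings of arrays gave -0.75 to -0.66, and 7.56% of detected probes differed by more. The gap between replicates was 0.024 log2 units with the decoy and 0.060 with scrambled RNA.

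**Figure D2:**
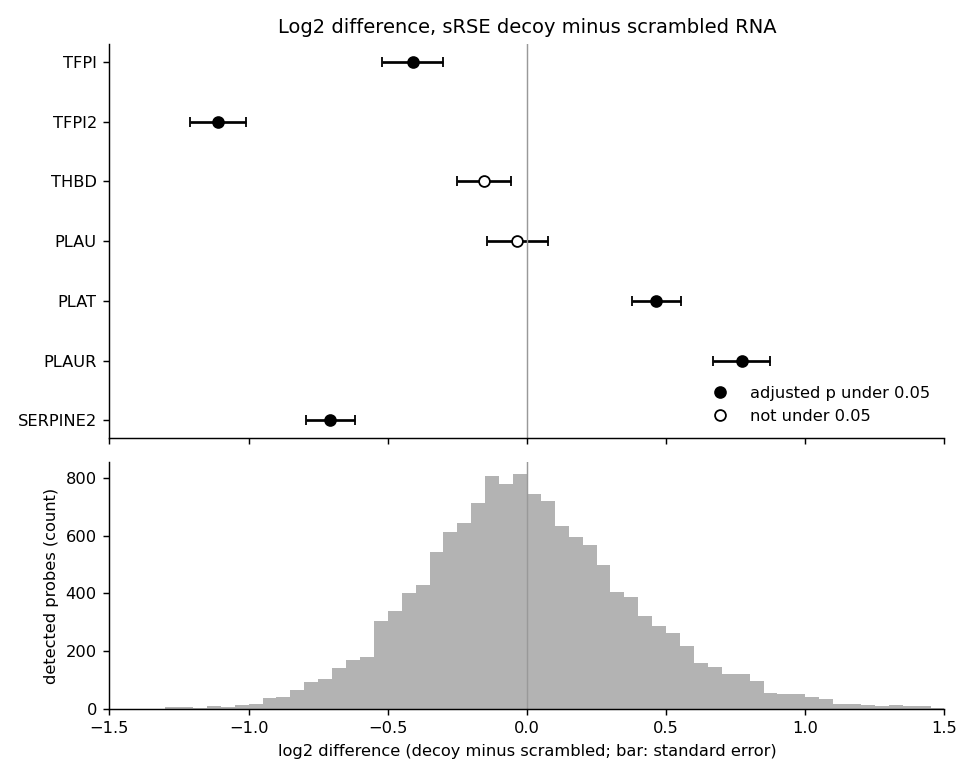
Upper panel: log2 difference of each member, sRSE decoy minus scrambled RNA, with bars for the standard error of the fit (2 arrays per group) and filled points for an adjusted p under 0.05. The members were chosen on this contrast, so the filling is a description. Lower panel: the same difference for all 13889 detected probes on the same axis, with 28 probes beyond 1.5 in either direction not drawn; TFPI2 at -1.11 lies in the thin lower tail, while PLAU and THBD lie in the bulk.

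Read together as counts, 5 of the 7 measured members passed the threshold of the fit over all probes (limma, adjusted p under 0.05). PLAUR and PLAT were higher and TFPI2, SERPINE2 and TFPI lower with the decoy. TFPI was detected on 3 arrays, and its raw means stood at a ratio of 1.02, decoy over scrambled. With detection required on all 4 arrays, 4 of 6 members passed. The same threshold was passed by 42.3% of all 6469 measured genes, 20.3% higher and 22.0% lower, and by 43.3% of all detected probes, 21.4% higher and 21.9% lower. Since the members were chosen on this contrast nothing is read from their count. The groups did not overlap for 6 members after normalization, PLAU being the exception, and for 75.5% of all genes and 74.2% of all probes. The median difference was -0.15 over the 7 members and -0.030 over all genes, and the median size was 0.46 against 0.24. Nothing is read from this size either, for the same reason of choice. TFPI2 was the single member past a 2-fold difference, as were 1.1% of all genes and 1.68% of all probes.

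Ratios of member signals within an array need no scaling between arrays. The pairs were formed with the members' directions known, and 4 of the 7 have SERPINE2 as denominator, so they restate the differences above and support nothing further. The raw PLAUR signal divided by that of SERPINE2 was 0.548 and 0.574 on the decoy arrays, against 0.184 and 0.205 on the scrambled arrays. The mean ratio was 2.89 times as high with the decoy, and 2.68 to 3.13 times over the 4 pairs of arrays. PLAT over SERPINE2, an activator over its inhibitor, was 1.54 and 1.53 on the decoy arrays, against 0.728 and 0.656, 2.22 times as high. PLAUR over PLAU, the receptor over its ligand, was 0.148 and 0.144 on the decoy arrays, against 0.0643 and 0.0904, 1.89 times as high. PLAU over SERPINE2 was 3.70 and 3.99 on the decoy arrays, against 2.86 and 2.26, 1.503 times as high. TFPI2 over SERPINE2, both lower, was 0.745 and 0.824 on the decoy arrays, against 1.103 and 0.938. The other 2 pairs computed were PLAT over PLAU, at 0.417 and 0.382 on the decoy arrays against 0.255 and 0.290, and PLAUR over PLAT, at 0.355 and 0.376 against 0.252 and 0.312. A ratio of 2 probes is no ratio of transcripts or proteins, and such a change shows unequal change of the pair, not which of them changed. No protein or enzyme activity was measured.

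**Figure D3:**
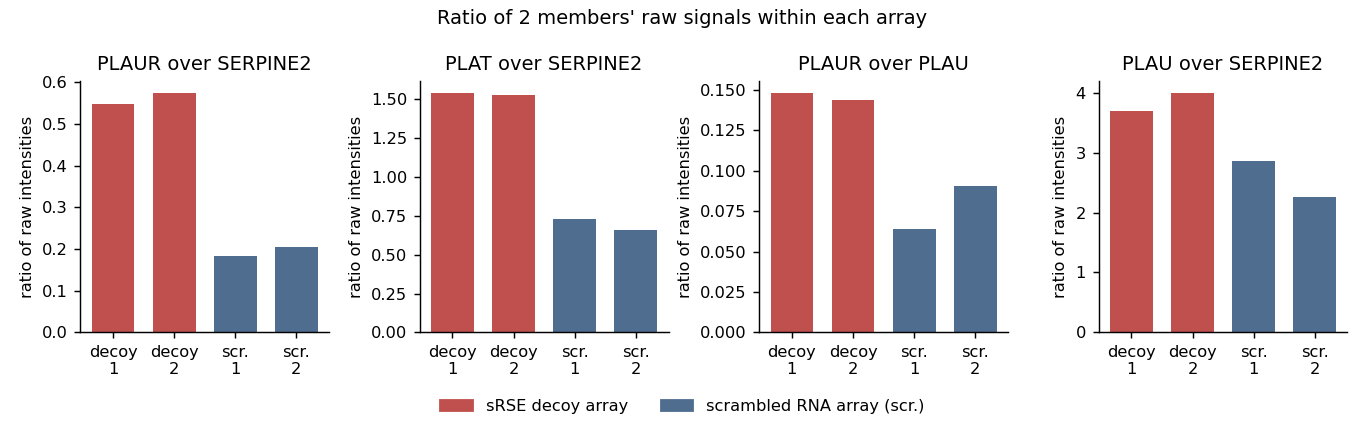
Ratio of the raw intensities of 2 members within each array (bars from 0, no unit), decoy arrays left of scrambled RNA arrays. PLAUR over SERPINE2 is 0.548 and 0.574 on the decoy arrays, against 0.184 and 0.205 on the scrambled arrays, and these pairs were formed with the members' directions known.

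A further 78 genes of coagulation and plasminogen activation were followed beside the members. Of these, 58 had a linked probe and 24 were detected. With the decoy 5 of the 24 rose, 4 fell and 15 did not pass the test, so that 37.5% were called, beside 42.3% of all genes. Their median difference was -0.093. With median scaling 4 were called. Leaving out 1 array gave 3 without scrambled replicate 2, 3 without sRSE decoy replicate 1 and 4 without sRSE decoy replicate 2.

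Among 7 genes listed as serpins and other inhibitors of fibrinolysis, 3 had a linked probe. Only SERPINB8 was measured, and it was not called. A role of SERPINB8 in fibrinolysis was not tested, so the group is hardly covered. SERPINB8 had -0.25 ± 0.09 (limma adjusted p = 0.0571) by its brightest probe and 0.040 by its other probe. The brightest probe read raw intensities of 205.9 and 180.1 with the decoy, against 180.3 and 171.6, so the raw groups overlapped.

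Of 9 genes for plasminogen and its binding proteins, 7 had a linked probe, 4 were measured and 2 rose. ENO1, a glycolytic enzyme that also binds plasminogen at the cell surface, had 0.37 ± 0.12 (limma adjusted p = 0.0377). ANXA2, which forms a surface receptor for plasminogen and its tissue activator with S100A10, had 0.28 ± 0.09 (limma adjusted p = 0.0339), but -0.011 with median scaling over the detected probes. Both probes were among the bright ones, and each lost its call or its sign in at least 6 of 15 alternatives. CTSB, the protease cathepsin B, had 0.089 (limma adjusted p = 0.459) by its brightest probe and 0.55 ± 0.10 (limma adjusted p = 0.00408) by its other probe, so its probes disagreed.

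Of 5 genes for the vitamin K cycle and the secretion of clotting factors, 3 had a linked probe, 3 were measured and 2 fell. VKORC1L1, a vitamin K epoxide reductase, had raw intensities of 345.9 and 316.5 on the decoy arrays, against 615.8 and 527.2 on the scrambled arrays. Its log2 difference was -1.22 ± 0.09 (limma adjusted p = 2.78e-04), larger than that of TFPI2. GGCX, the carboxylase that uses reduced vitamin K, had -0.41 ± 0.12 (limma adjusted p = 0.0263). Its raw intensities lay closer together, at 412.0 and 448.3 on the decoy arrays, against 449.7 and 450.4 on the scrambled arrays. Its call was lost in 4 of 15 alternatives, with -0.30 under median scaling and -0.26 without sRSE decoy replicate 1, and the others were scrambled replicate 2 left out and no detection filter. LMAN1, a cargo receptor for factors V and VIII, had 0.15 ± 0.11 (limma adjusted p = 0.297).

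Of 16 coagulation factors, 11 had a linked probe and 1 of these was detected. F12, the contact factor, had -0.31 ± 0.10 (limma adjusted p = 0.0384) at raw intensities of 168.1 and 158.5 with the decoy, against 149.9 and 155.8 with scrambled RNA, so its raw signal was higher and its normalized signal lower with the decoy, and it lost its call in 10 of 15 alternatives. Of 11 anticoagulant genes, 10 had a linked probe and 3 were detected, and SERPINA1, alpha-1-antitrypsin, rose by 0.29 ± 0.10 (limma adjusted p = 0.0436). SERPINA1 lost its call in 5 of 15 alternatives, which were the replicate block (limma adjusted p = 0.0575), no detection filter, and the omission of either decoy array or of scrambled replicate 2. PROS1, the protein C cofactor protein S, had -0.26 ± 0.10 (limma adjusted p = 0.0603), and PROCR, the receptor of protein C, had -0.063 ± 0.15 (limma adjusted p = 0.75). The raw PROS1 signal was higher with the decoy, at 589.4 and 577.6 against 573.4 and 569.2. The receptors cleaved by thrombin or related proteases, F2R, F2RL1, F2RL2 and F2RL3, had no linked probe. Of 12 proteases and growth factors that plasmin or urokinase act on or with, all with a linked probe, 3 were detected and 0 were called by limma. MMP14 had 0.11, MMP1 had -0.11 and MMP9 had -0.10, with the lowest adjusted p at 0.356 (MMP14). The raw MMP1 signal was higher with the decoy, at 488.5 and 493.1 against 423.4 and 435.8. So was that of MMP9, at 163.6 and 144.5 against 129.5 and 134.4. MMP9 was detected on only 1 decoy array and 1 scrambled array.

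Among 14 transcription regulators known to act on F3, PLAU, PLAUR or THBD, 12 had a linked probe, 9 were measured, 2 rose and 1 fell. FOSL1, an AP-1 subunit, had raw intensities of 1512.6 and 1417.0 on the decoy arrays, against 637.6 and 650.7 on the scrambled arrays. Its log2 difference was 1.02 ± 0.10 (limma adjusted p = 5.55e-04). YBX1, a protein that binds DNA and RNA, had 0.49 ± 0.09 (limma adjusted p = 0.00356). With median scaling YBX1 had 0.31 (limma adjusted p = 0.0514), and with median scaling over the detected probes 0.23 (limma adjusted p = 0.0579), so both ended its call. JUN, another AP-1 subunit, fell by 0.28 on the log2 scale (standard error 0.090, limma adjusted p = 0.0374). JUN lost its call in 4 of 15 alternatives, which were no detection filter and the omission of either decoy array or of scrambled replicate 2. EGR1, ETS2, SP1, NFKB1, KLF2 and KLF6 did not pass, with differences between -0.18 and -0.027.

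**Figure D4:**
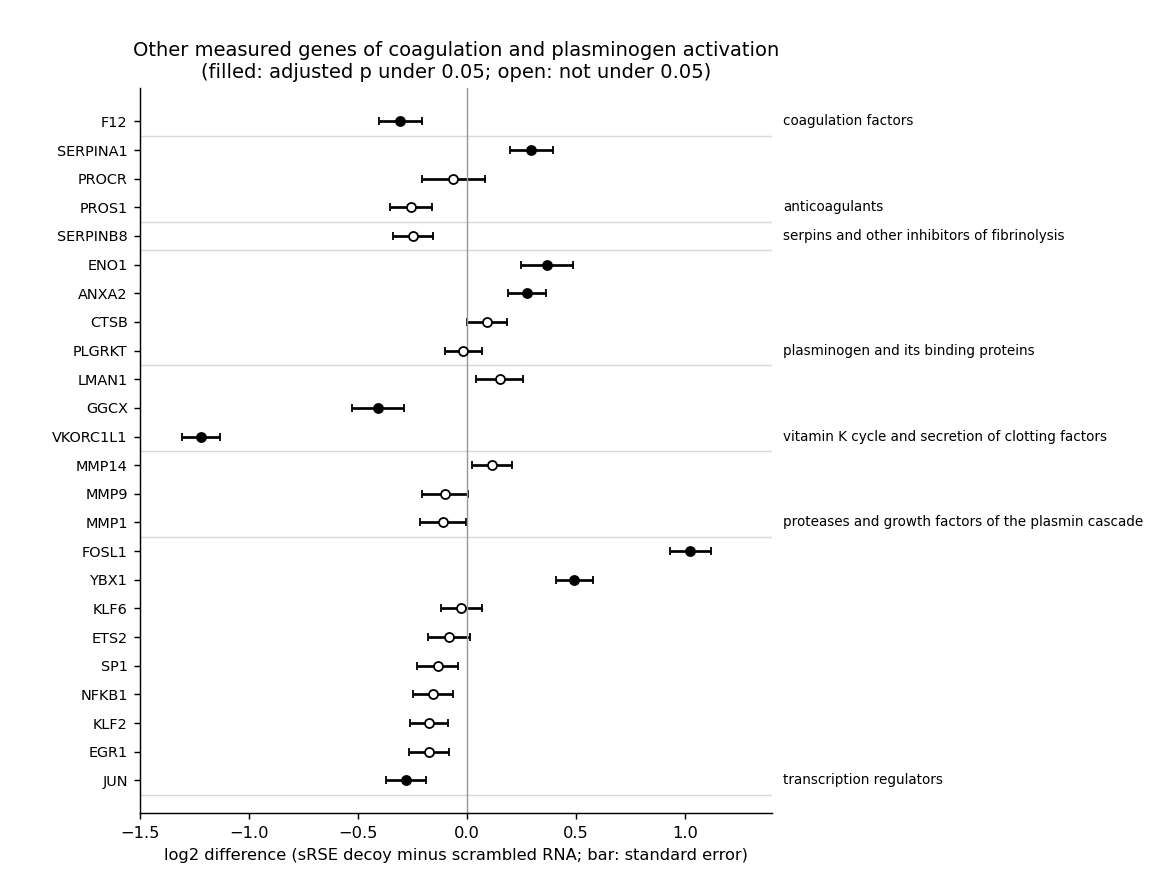
Log2 difference, sRSE decoy minus scrambled RNA, of the 24 measured genes of the pathway outside the 8 members, by role, with bars for the standard error of the fit (2 arrays per group). Filled points passed an adjusted p of 0.05; FOSL1 at 1.02 and VKORC1L1 at -1.22 lie farthest from 0.

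The arrays of a group resembled each other more than those of different groups, at r = 0.996 between decoy arrays, 0.995 between scrambled arrays and 0.975 between groups, across probes, which are not independent replicates. Decoy arrays were brighter, with median raw intensities of 83.9 and 81.3 against 77.5 and 76.3 on the scrambled arrays. Over all probes 6018 of 13889 were called (limma, adjusted p under 0.05), 2973 higher and 3045 lower, against 3443 higher and 2082 lower with median scaling. Of 7 listed markers of the MDA-MB-231 lineage, 4 had a linked probe. CD44, FOSL1 and MSN were detected, FOSL1 being called higher with the decoy, and SPARC was not detected. Luminal breast markers were detected for 0 of 7 linked genes. Of 7 linked endothelial markers 2 were detected, ESAM and PECAM1, the second called higher with the decoy, with summed raw signals of 2552.4 to 2801.9 on decoy and 2423.6 to 2576.0 on scrambled arrays, and CDH5, CLDN5, KDR, TIE1 and VWF were not. Monocyte markers were detected for 2 of 5 genes, CD14 and CSF1R, neither called (830.5 to 840.4 on decoy against 774.7 to 784.4 on scrambled arrays) and platelet markers for 2 of 6, GP1BA and PPBP, the first called lower with the decoy (713.9 to 776.0 on decoy against 700.9 to 720.4 on scrambled arrays). All these sums take in undetected probes and raw background. The sums of the luminal list, with 0 genes detected, were also higher on decoy arrays (529.9 to 545.8 against 501.0 to 521.6). The sums are thus no measure of marker expression. What part other cells had in the member values was not tested.

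**Figure D5:**
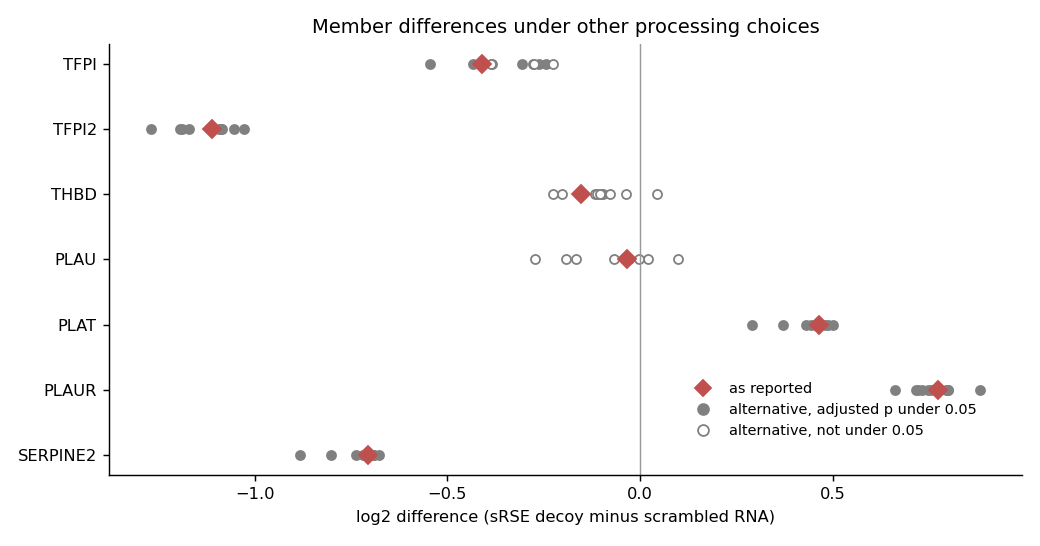
Log2 difference of each member, sRSE decoy minus scrambled RNA, as reported (diamonds) and under each alternative processing (circles, filled where the adjusted p is under 0.05). The filling is a description, since the members were chosen on this contrast. TFPI2 spans -1.27 to -1.03 and PLAUR 0.66 to 0.88, whereas THBD and PLAU have values on both sides of 0.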

How the data were processed

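Total RNA of 4 MDA-LM2 samples was read on beadchips of 47323 probes. The deposited raw values are intensities without background subtraction, beside detection p-values, per the file headers. On 1 array (sRSE decoy replicate 1) 3 detection cells exceed 1, and each was replaced through its 5 neighbours in signal. Deposited too are the authors' normalized intensities, for which the submitters' processing notes name lumi, and a table with 1 value per transcript accession, whose scale is not stated and whose values at linked accessions match a log10 ratio of transformed group means.

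No table given here pairs probes with genes. The authors' deposited value was recomputed for each probe as a log10 ratio of transformed group means, with constants fitted to the deposited values. An accession was linked where 1 probe agreed within 6e-10. This linked 32441 of 39747 accessions (81.6%), against 108 on average in 8 shifted tables. Names come from the RefSeq gene table of GRCh38.p14. Every array value of a named gene rests on this join.

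Raw intensities went through limma's neqc (offset 16, log2, quantile; limma 3.58.1, R 4.3.3). Probes needed detection p under 0.01 on 2 of 4 arrays, and a gene is given by its brightest detected probe. Groups were compared with lmFit and eBayes without covariates, adjusted by Benjamini-Hochberg over all detected probes, with a threshold of 0.05. With 2 arrays per group, their number limits the precision. The fit and the join were also run on simulated data. There few probes changed and all had the same spread, unlike on these arrays, so the simulated fit does not check the calls given here. Named were all members and, from each role group, the 3 measured genes with the smallest p. The other 6 transcription regulators were named after their values were seen. Members and lists were chosen with earlier results of these data known. One item of the pathway list is not reported here and stays out of the list's counts. Alternatives changed the background correction, the scaling, the detection filter, the probe rule, the replicate block and each array left out.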

Additional observations from a re-analysis of the deposited data

How the results depend on the processing

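TFPI2 (-1.27 to -1.03), SERPINE2 (-0.88 to -0.68), PLAUR (0.66 to 0.88) and PLAT (0.29 to 0.50) had these ranges over 14 alternatives each, given as descriptions since the members were chosen on this contrast. TFPI ran from -0.55 to -0.23, and its adjusted p was over the threshold with median scaling, without the detection filter, without sRSE decoy replicate 2 and without scrambled replicate 2. The count of called members was 4 to 5 with 1 array left out. The count of called probes was 3453 without the detection filter, and 3722 to 5090 with 1 array left out, where 3748 came without sRSE decoy replicate 1 and 3722 without sRSE decoy replicate 2. The pathway count was 4 with median scaling, 4 of 58 without the detection filter and 3 to 8 with 1 array left out. Signs turned for THBD (0.044), PROCR (0.044), CTSB (-0.0011) and MMP9 (0.088) with median scaling. They turned for ANXA2 (-0.011), CTSB (-0.083) and MMP9 (0.0059) with median scaling over detected probes, an alternative chosen after seeing the data, and for PLAU with cyclic loess (0.021). With 1 array left out, values ran from -0.17 to 0.098 for PLAU (positive without scrambled replicate 1), from -0.27 to 0.14 for PROCR (positive without replicate 2 of either group) and from -0.21 to 0.0020 for MMP9 (positive without scrambled replicate 2). The cause was not tested. Of 351 values for 24 genes, 291 kept sign and side, 41 lost the call, 7 gained it and 12 turned. The median of all probes lay between -0.037 and 0.045 over the scalings. Same-numbered samples did not deviate together (correlation -0.0084), and with the replicate block 5935 probes, 5 members and 8 pathway genes were called. Signals at the edge of detection limit TFPI, THBD, F12 and MMP9.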

Other observations

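Some genes of the pathway without a linked probe have a value in the authors' deposited table alone. These values have no spread, their scale is not stated, and they are no folds of intensity. The receptors cleaved by thrombin and related proteases have such values, decoy over scrambled. They are 0.00376 for F2R, 0.00415 for F2RL1, 0.00291 for F2RL2 and -0.00151 for F2RL3. These lie above 78.4%, 80.2%, 73.9% and 39.7% of all accessions. VKORC1, the vitamin K epoxide reductase related to VKORC1L1, has 0.0165 in the authors' deposited table, above 96.9% of accessions. This value is on another scale than the log2 difference of VKORC1L1 and cannot be set against it. S100A10, the partner of ANXA2, has a deposited value of -0.00165 (above 38.5%). SERPINB2, plasminogen activator inhibitor-2, has 9.27e-04 (above 60.0%).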
